A study of Mus musculus with 12 samples.

Results

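The genes described here are 10 protein genes carried by the mitochondrial genome of the mouse, taken by symbol from a table of 21125 genes: mt-Nd1, mt-Nd2, mt-Nd4 and mt-Nd5 of respiratory complex I, mt-Cytb of complex III, mt-Co1, mt-Co2 and mt-Co3 of complex IV, and mt-Atp6 and mt-Atp8 of the ATP synthase. All 10 were found, each as a single row, and all 10 passed the filter on low values, as did 10634 genes in the whole table. The table also held mt-Nd3, mt-Nd4l and mt-Nd6, which complete the 13 protein genes of this genome and are given once for reference. The measurements were RNA-seq profiles of midbrain microglia, the brain's own macrophages, sorted by flow cytometry from mice. The groups were MPTP-treated KO animals (genotype Ppargc1a FF CreER), MPTP-treated WT animals (Ppargc1a FF), PBS-treated KO animals (Ppargc1a FF CreER) and PBS-treated WT animals (Ppargc1a FF). MPTP is a toxin of dopaminergic neurons, and Ppargc1a encodes a coactivator of mitochondrial biogenesis. Every sample, WT included, was labelled as taken 6 weeks after tamoxifen, and WT animals carried the same conditional Ppargc1a allele without CreER. The promoter that drives CreER, the strain and the age of the animals, and whether samples came from separate animals, were not given in the sources used here. The p-values below thus cover the spread between profiles alone, and that spread may be technical.

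Mitochondrial DNA is a small circle that is transcribed by its own polymerase into long RNAs from which the single messengers are cut, mostly at the transfer RNAs that lie between them. Its protein genes encode core subunits of the respiratory chain, and all other subunits of the same complexes come from nuclear genes. Macrophages alter the use of the respiratory chain when they are activated, and Ppargc1a is known to raise the expression of both sets of genes in other tissues such as muscle.

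The labels number 3 samples in each of 4 groups, but the 12 columns of the table held 6 separate profiles. The third column of every group could be computed from the other two to rounding, as 0.99 times their mean with 0.1 added. WT MPTP 2 was WT MPTP 1 multiplied by 1.02, and KO MPTP 1 was KO PBS 2, from the PBS group, multiplied by 1.02. Rows that departed from these relations lay in 42 genes, of which 0 were on the mitochondrial genome and 1 was Ppargc1a. The separate profiles were KO MPTP 2, WT MPTP 1, KO PBS 1 and 2, and WT PBS 1 and 2. The treatment of the profile named KO PBS 2 cannot be told from the table, since it stands under both treatments. That profile was left out of each comparison of treatments and of genotypes within a treatment, and was used as KO where genotypes were compared across treatments. The values, taken as FPKM (fragments per length of transcript and total of mapped fragments), summed to between 388861 and 425554 per separate profile, with WT MPTP 1 the highest. Read depth is unknown. Ppargc1a was at 0.42 FPKM in KO MPTP 2 and 2.72 FPKM in WT MPTP 1. It was at 0.33 and 0.12 FPKM in the KO PBS columns 1 and 2, and at 5.70 and 6.21 FPKM in the WT PBS ones. Of 11 markers of microglia and macrophages, 7 passed the filter, among them Cd68 with a mean of 479 FPKM, Csf1r with 117 and Itgam with 80.8. Aif1 and the microglial marker Tmem119 also passed, with means of 7.87 and 2.02 FPKM. The microglial markers Cx3cr1, P2ry12, Siglech and Sall1 were all under 1 FPKM. The name microglia is thus that of the submitters' description. Of the listed markers of other cells, not all were in the table. For neurons 2 of 6 were, without Rbfox3, Snap25, Th and Slc6a3, and they summed to at most 0.03 FPKM in any profile. For astrocytes 4 of 5 were, with a sum of at most 3.33 FPKM, most of it Aldh1l1 with a mean of 2.91 FPKM. For oligodendrocytes 3 of 5 were, with sums between 1.21 and 1.83 FPKM. For endothelial cells 3 of 4 were, with sums between 82.05 and 90.41 FPKM, nearly all of it Flt1. Cdh5 was listed at 0 and Pecam1 averaged 0.122 FPKM.

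The reading frames of mt-Atp8 and mt-Atp6 share bases on one messenger, which bears on how their levels can be compared. The sequences are those of the GENCODE M21 transcripts (GRCm38, mitochondrial genome, + strand), while the submitters' processing notes name the build mm9, so no coordinates are given. Capitals mark the stretch of 43 bases that belongs to both genes, from the start codon of mt-Atp6 to the stop codon of mt-Atp8. The first line is the whole mt-Atp8 transcript of 204 bases and the second the first 73 bases of mt-Atp6.
mt-Atp8: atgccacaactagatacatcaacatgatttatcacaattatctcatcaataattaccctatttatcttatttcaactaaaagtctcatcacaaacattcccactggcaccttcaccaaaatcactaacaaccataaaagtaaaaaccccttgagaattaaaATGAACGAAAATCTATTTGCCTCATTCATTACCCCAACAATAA
mt-Atp6 start: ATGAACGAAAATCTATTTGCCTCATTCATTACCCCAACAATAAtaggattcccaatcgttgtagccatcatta

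Fragments that fall on these bases cannot be told apart between the genes. The same holds for nuclear copies of mitochondrial sequence that exist in the mouse genome, since the treatment of such reads is not given in the sources used here. In the same annotation the 10 transcripts were between 204 bases (mt-Atp8) and 1824 bases (mt-Nd5) long, all on the + strand, with a GC content between 31.9% and 39.9%. mt-Co3, mt-Nd4 and mt-Cytb ended in a single T in place of a full stop codon, which is known to be completed by polyadenylation. Their ends are printed to show this shared feature, with that T in capitals.
mt-Co3 end: atttattgatgaggatctT
mt-Nd4 end: attacaggcctgacaataT
mt-Cytb end: atactaaaattatatccaT

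The 10 genes were among the highest of the whole table. By mean level over the 6 separate profiles, 8 of them stood among the 20 highest genes and all 10 among the 30 highest. Together they held 8.02% of all FPKM in KO MPTP 2, against 8.24% in WT MPTP 1. They held 8.13% and 7.75% in the KO PBS profiles, against 7.29% and 7.18% in the WT PBS profiles. The WT PBS profiles were the lowest on this measure, and WT MPTP 1 was above every KO profile. In bulk samples a lower share of cells and less RNA per cell cannot be told apart.

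The complex IV genes and mt-Atp6 stood highest. mt-Co1, the catalytic subunit of cytochrome c oxidase, averaged 6024 ± 364 FPKM (SD, n = 6 profiles) and was the gene of rank 3 in the whole table. mt-Atp6, part of the proton channel of the ATP synthase, averaged 5125 ± 337, and mt-Co2, which takes electrons from cytochrome c, 4969 ± 333 FPKM. mt-Co3, a structural subunit of complex IV, averaged 3985 ± 251 and mt-Atp8, a small ATP synthase subunit, 2784 ± 189 FPKM. The genes of complexes I and III were lower. mt-Nd1, which helps form the quinone site of complex I, averaged 2475 ± 386 FPKM, and mt-Cytb, the cytochrome b of complex III, 1752 ± 150. mt-Nd4, mt-Nd2 and mt-Nd5, membrane subunits of the proton-pumping arm of complex I, averaged 1578 ± 170, 1467 ± 210 and 1273 ± 107 FPKM. Most of this order held inside every profile: of the 9 neighbouring pairs, 6 had the same order in 6 of 6 profiles. The exceptions were mt-Atp6 and mt-Co2, mt-Atp8 and mt-Nd1, and mt-Nd2 and mt-Nd5, each with 1 profile in the other order. No test between genes was run. FPKM is scaled by length, and the 2 ATP synthase genes differed although they share a messenger: the level of mt-Atp8 relative to mt-Atp6 was 0.51 in KO MPTP 2, against 0.56 in WT MPTP 1, and 0.54 in both KO PBS profiles, against 0.54 and 0.56 in the WT PBS profiles. The ratio of mt-Nd4l to mt-Nd4, whose frames overlap by 7 bases, was between 0.66 and 0.69 in all profiles.

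**Figure D1:**
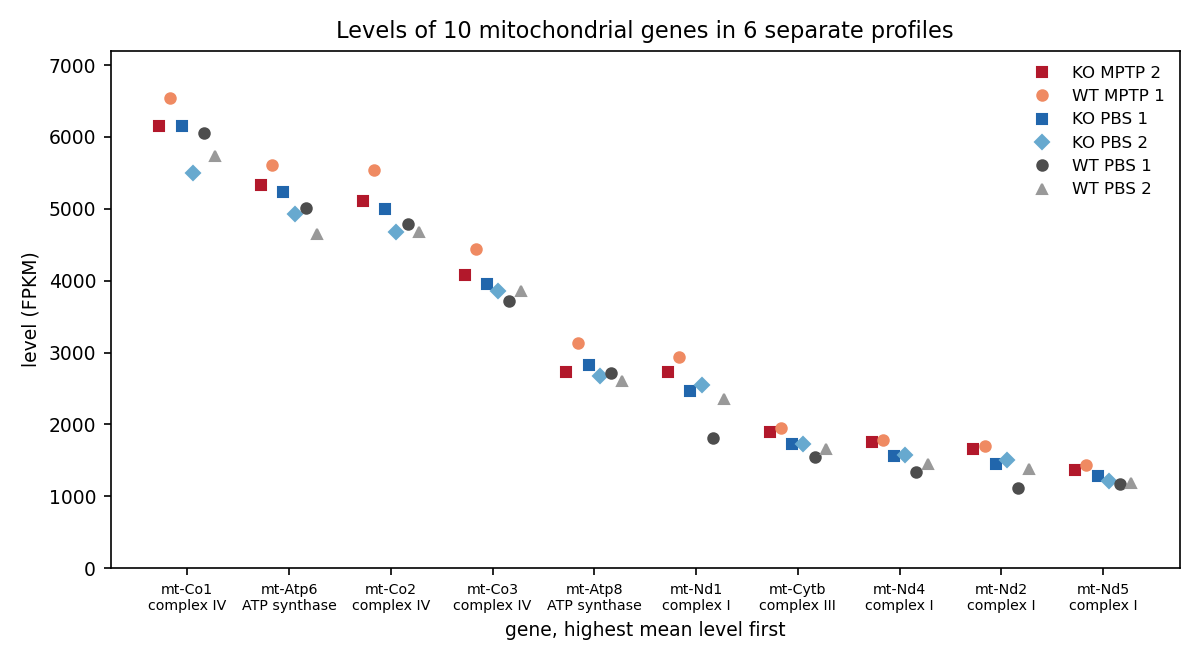
Level of each of the 10 mitochondrial genes (vertical axis, FPKM, linear) in each of the 6 separate profiles, with genes ordered by mean level. WT MPTP 1 is the highest point of every gene, and WT PBS 1 stands below the others for mt-Nd1 and mt-Nd2.

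The WT MPTP profile had the highest level of all 10 genes among the 6 profiles, but no gene passed the test. This comparison asked how WT microglia respond to the toxin. mt-Nd1 was at 2941 FPKM in WT MPTP 1, against 1811 and 2356 FPKM in the WT PBS profiles. mt-Nd2 was at 1696 FPKM in WT MPTP 1, against 1120 and 1374 FPKM in WT PBS. mt-Nd4 was at 1783 FPKM in WT MPTP 1, against 1344 and 1452 FPKM in WT PBS. These 3 complex I genes stood furthest above WT PBS. The log2 fold change on the log2(FPKM + 1) scale was 0.51 ± 0.16 for mt-Nd1, 0.45 ± 0.14 for mt-Nd2 and 0.35 ± 0.12 for mt-Nd4 (SE), each with an adjusted p of 1.0 (limma, Benjamini-Hochberg over 10634 genes). In fold terms mt-Nd1 was 1.42 times as high, with a 95% interval of 1.11 to 1.83 that is not adjusted for the number of genes.

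The other members were nearer to their WT PBS values. mt-Nd5 was at 1434 FPKM in WT MPTP 1, against 1166 and 1186 FPKM in WT PBS, and mt-Cytb at 1951 FPKM, against 1544 and 1663 FPKM. mt-Co1 was at 6542 FPKM in WT MPTP 1, against 6057 and 5732 FPKM in WT PBS. mt-Co2 was at 5545 FPKM, against 4795 and 4683 FPKM, and mt-Co3 at 4436 FPKM, against 3721 and 3864 FPKM. For all 5 the single MPTP profile lay outside the span of the PBS pair. mt-Atp6 was at 5607 FPKM in WT MPTP 1, against 5010 and 4646 FPKM in WT PBS, and mt-Atp8 at 3140 FPKM, against 2722 and 2606 FPKM. The fold changes of these 7 genes were between 0.15 for mt-Co1 and 0.29 for mt-Nd5 on the log2 scale. The median over the 10 genes was 0.26, and over all genes tested 0.04.

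By limma, 0 of the 10 were called at an adjusted p under 0.05, a threshold that 0.254% of all genes passed in either direction. At an unadjusted p under 0.05 there were 5 of 10, all higher (mt-Nd1, mt-Nd2, mt-Nd4, mt-Nd5 and mt-Cytb), where 2.65% of all genes passed that threshold and 1.61% were higher. That number depended on the fit. It was 0 without the filter on low values, and 4 with scaling by the trimmed mean of M values or with the highest row per symbol. With the profile under both labels entered it was 8 or 9. The share of all genes with such a p is not given here for those fits. Of the 10, 10 lay above 0, as did 73% of all genes, and with quantile normalization 8 did. WT MPTP 1 was above both WT PBS profiles for 10 of 10 genes, as it was for 50.1% of all genes, and was the highest of the 6 profiles for 10 of 10, as for 31.2% of all genes. With quantile normalization the median of the 10 was 0.13 on the log2 scale. There mt-Cytb was at 0.07, mt-Co1 at 0 and mt-Co2 at −0.02. In that fit 1 member, mt-Nd4, was called, and 16 genes were in the whole table. That scaling sets values by rank, and mt-Nd4 had the same value, 0.265, in KO PBS against WT PBS. The values of mt-Nd1 and mt-Nd2 rested on the WT PBS profiles, in fits that counted the profile under both labels as KO PBS. Without WT PBS 1, mt-Nd1 was at 0.32 and mt-Nd2 at 0.30. Without WT PBS 2, mt-Nd1 was at 0.70 and mt-Nd2 at 0.60. Each of these fits leaves 1 WT PBS profile and takes its spread from KO PBS 1 and the profile under both labels. In the fit without WT PBS 2, mt-Nd1, mt-Nd2 and mt-Nd4 were called, with no replicate of either group compared.

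The WT PBS pair itself differed in the same genes. On the log2 scale, WT PBS 1 minus WT PBS 2 was −0.38 for mt-Nd1 and −0.30 for mt-Nd2, the first and second protein genes in the order of the genome, and −0.11 for mt-Nd4 and for mt-Cytb. It was between −0.05 and 0.11 for the other 6 genes. Of all genes tested, 0.931% differed within this pair by at least as much as mt-Nd1 and 2.46% by at least as much as mt-Nd2. mt-Nd3, which is no neighbour of either, differed by −0.44. The level of mt-Nd1 relative to mt-Co1 was 0.44 in KO MPTP 2, against 0.45 in WT MPTP 1, and 0.40 and 0.46 in the KO PBS profiles, against 0.30 and 0.41 in the WT PBS profiles. The summed level of the 4 complex I genes relative to the 3 complex IV genes was 0.49 in KO MPTP 2, against 0.48 in WT MPTP 1, and 0.45 and 0.49 in the KO PBS profiles, against 0.37 and 0.45 in the WT PBS profiles. WT PBS 1 was the lowest profile on both ratios.

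**Figure D2:**
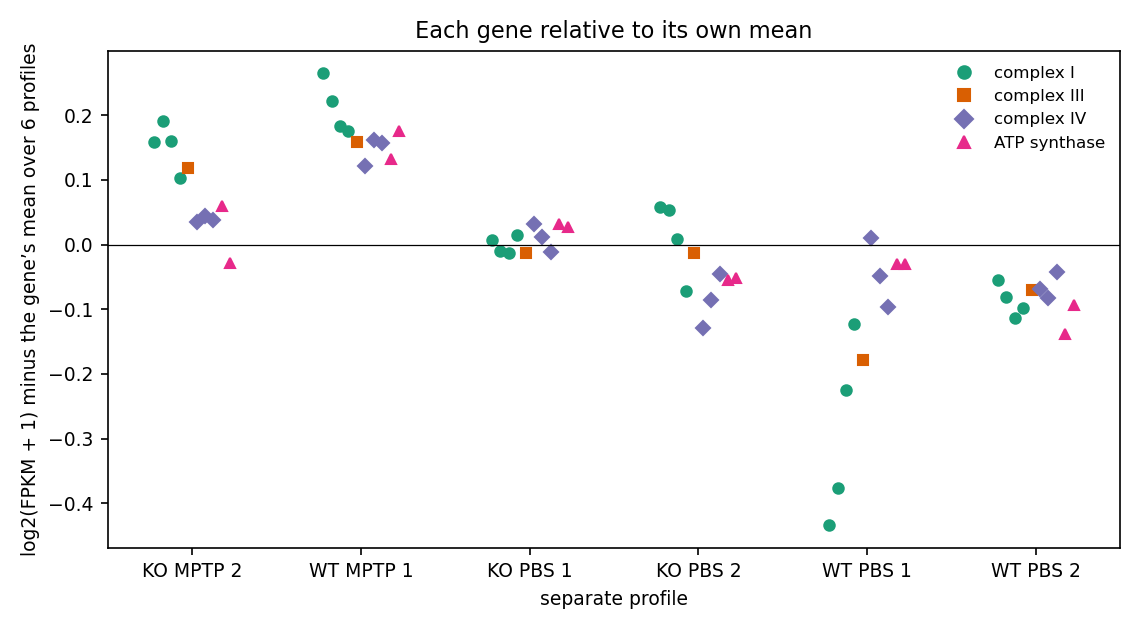
For each separate profile (horizontal axis), the log2(FPKM + 1) value of each gene minus that gene's mean over the 6 profiles (vertical axis), with colour and shape by complex. WT MPTP 1 lies above 0 for all 10 genes, WT PBS 2 below 0 for all 10, and in WT PBS 1 the genes spread from −0.43 for mt-Nd1 to 0.01 for mt-Co1.

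Deficient microglia showed small differences of these genes after MPTP, in a comparison of 1 profile with 1 profile that asked for the response without Ppargc1a. mt-Nd2 was at 1659 FPKM in KO MPTP 2, against 1444 FPKM in KO PBS 1, or 0.20 ± 0.16 (SE) as log2 fold change, with an adjusted p of 0.667 by limma. mt-Nd4 was at 1753 FPKM, against 1555 FPKM, and mt-Nd1 at 2732 FPKM, against 2459 FPKM, which gave 0.17 and 0.15 on the log2 scale. mt-Cytb was at 1896 FPKM, against 1731 FPKM, and mt-Nd5 at 1364 FPKM, against 1282 FPKM. The complex IV genes lay close together in the KO profiles. mt-Co1 was at 6160 FPKM in KO MPTP 2, against 6149 FPKM in KO PBS 1. mt-Co2 was at 5116 FPKM, against 5002 FPKM, and mt-Co3 at 4083 FPKM, against 3949 FPKM. mt-Atp6 was at 5331 FPKM, against 5229 FPKM. mt-Atp8 was the one member lower in KO MPTP 2, at 2725 FPKM, against 2831 FPKM in KO PBS 1.

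By limma, 0 of the 10 were called, against 0.292% of all genes, and 0 had an unadjusted p under 0.05, against 9.23% of all genes. Of the 10, 9 lay above 0, as did 86.5% of all genes, and with the 3 other scalings between 3 and 5 did. The 3 came with quantile normalization, where mt-Nd4, mt-Nd5, mt-Co1, mt-Co2, mt-Co3 and mt-Atp6 were at 0 and only mt-Atp8 was below 0. The share of all genes above 0 is not given here for those scalings. The median of the 10 was 0.07 against 0.09 over all genes, and −0.04 with TMM scaling. The profile under both labels had 2549 FPKM for mt-Nd1, 1509 for mt-Nd2 and 5502 for mt-Co1. With the column KO MPTP 1 entered as a second MPTP profile the median of the 10 was 0.02, and with KO PBS 2 entered as a second PBS profile 0.10.

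Without the toxin, the KO profile was above both WT profiles for all 10 genes, again with none called. This comparison asked what the deficiency does on its own. KO PBS 1 had 2459 FPKM of mt-Nd1, against 1811 and 2356 FPKM in WT PBS, or 0.25 ± 0.16 (SE) as log2 fold change, with an adjusted p of 0.909 by limma. It had 1444 FPKM of mt-Nd2, against 1120 and 1374 FPKM. The log2 fold change of mt-Nd2 was 0.22, that of mt-Nd4 0.16 and those of the other 7 genes between 0.06 for mt-Co3 and 0.12 for mt-Nd5. For each gene the distance to the higher WT PBS profile was smaller still: mt-Co1 was at 6149 FPKM in KO PBS 1, against 6057 FPKM in WT PBS 1.

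By limma, 0 of 10 were called, against 0.226% of all genes, all of those lower in KO, and 0 of 10 had an unadjusted p under 0.05, against 4.42% of all genes. The median of the 10 was 0.11 and that of all genes −0.06. When the values were scaled to genes other than the mitochondrial ones, the median of the 10 was 0.20 and that of all genes 0.01. With quantile normalization they were 0.06 and 0.002. With either of these, 4 members had an unadjusted p under 0.05 and 0 were called. The share of all genes with such a p is not given here for these scalings. All 10 lay above 0, as did 22.1% of all genes, and with quantile normalization 8 did. KO PBS 1 exceeded both WT PBS profiles for 10 of 10 members and for 9.19% of all genes. This comparison and that of WT MPTP with WT PBS share the WT PBS profiles, which were below WT MPTP 1, KO MPTP 2 and KO PBS 1 for all 10 members and for 5.31% of all genes. With the profile under both labels counted as KO PBS the median of the 10 was 0.08 and mt-Co1 was at −0.02, and without KO PBS 1 as well the median was 0.03. With that count and all 6 profiles, mt-Nd1 was at 0.28 and mt-Nd2 at 0.25. Without WT PBS 1 they were at 0.09 and 0.10, and without WT PBS 2 at 0.47 and 0.40, each time with 1 WT PBS profile left.

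Under MPTP, all 10 genes had lower values in the KO profile than in the WT profile, by at most 1.35 times their standard errors on the log2 scale, and none was called. With 1 profile on each side there is no replicate of this difference. mt-Atp8 was at 2725 FPKM in KO MPTP 2, against 3140 FPKM in WT MPTP 1, or −0.20 ± 0.15 (SE) as log2 fold change, with an adjusted p of 1.0 by limma. mt-Co3 was at 4083 FPKM in KO MPTP 2, against 4436 FPKM in WT MPTP 1, and mt-Co2 at 5116 FPKM, against 5545 FPKM, both −0.12 on the log2 scale. mt-Nd1 was at 2732 FPKM, against 2941 FPKM, and mt-Nd4 at 1753 FPKM, against 1783 FPKM. The median of the 10 was −0.08 and that of all genes −0.01. By limma 0 of 10 were called, against 0.103% of all genes, and 0 of 10 had an unadjusted p under 0.05, against 3.59% of all genes. KO MPTP 2 was below WT MPTP 1 for 10 of 10 members and for 53.6% of all genes. As log2 fold change 0 of 10 lay above 0, where 45.7% of all genes did, and 3 of 10 (mt-Nd2, mt-Nd4 and mt-Cytb) when the values were scaled to genes other than the mitochondrial ones (2 with quantile normalization).

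The difference between the genotypes in their response to MPTP was tested as an interaction. It was below 0 for all 10 genes. With quantile normalization it was above 0 for mt-Cytb (0.0119) and mt-Co2 (0.0214). Without that scaling it ran from −0.36 ± 0.25 (SE) for mt-Nd1 to −0.15 ± 0.24 for mt-Co1, with a median of −0.19 against 0.05 over all genes. By limma 0 of 10 were called (adjusted p = 1.0 for each), against 0.0752% of all genes, 0 of 10 lay above 0, against 67.1% of all genes, and 0 of 10 had an unadjusted p under 0.05, against 5.17% of all genes. The response of these genes was therefore not shown to differ between genotypes. The 95% interval for mt-Nd1 ran from −0.91 to 0.20 on the log2 scale.

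Over all 6 separate profiles, none of the 10 mitochondrial messengers was called between KO and WT. This comparison asked for the effect of genotype with treatment left out of the fit: WT held 1 MPTP and 2 PBS profiles, and KO 1 MPTP profile, 1 PBS profile and the profile under both labels. Within treatments the median of the 10 had opposite signs, 0.11 in KO PBS against WT PBS and −0.08 in KO MPTP against WT MPTP. The pooled fit averages over these. mt-Co1 averaged 5937 ± 377 FPKM in KO and 6110 ± 408 FPKM in WT (SD, n = 3 profiles each). mt-Co2 averaged 4931 ± 229 FPKM in KO and 5008 ± 469 FPKM in WT, and mt-Atp6 5163 ± 210 FPKM in KO and 5088 ± 486 FPKM in WT. mt-Cytb averaged 1786 ± 95 FPKM in KO and 1719 ± 209 FPKM in WT. mt-Nd1 averaged 2580 ± 139 FPKM in KO and 2369 ± 565 FPKM in WT, and mt-Nd2 1537 ± 110 FPKM in KO and 1397 ± 288 FPKM in WT. For these 6 genes the ranges of the genotypes overlapped, as they did for the other 4: for 0 of 10 did all KO profiles lie on one side of all WT profiles, where 0.818% of all genes were higher and 7.19% lower in every KO profile.

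The log2 fold changes of KO against WT ran from −0.04 for mt-Co1 to 0.16 for mt-Nd2, with a median of 0.03 against −0.03 over all genes. Of the 10, 6 lay above 0, where 30.5% of all genes did, and with the 3 other scalings between 8 and 10 did. For those scalings the share of all genes above 0 is not given here. By limma 0 of 10 were called (adjusted p = 0.997 for each), against 0.0376% of all genes, and 0 of 10 had an unadjusted p under 0.05, against 3.49% of all genes. Exact two-sided permutation tests of the single genes gave p-values between 0.5 and 0.9, where 3 against 3 cannot go below 0.1. With treatments pooled, the 95% interval of the KO to WT ratio was 0.88 to 1.07 for mt-Co1, 0.89 to 1.09 for mt-Co2, 0.92 to 1.13 for mt-Atp6 and 0.94 to 1.31 for mt-Nd1. These intervals cover the spread between profiles alone and do not bound a difference within a treatment. Left out in turn, WT PBS 1 brought mt-Nd1 to −0.03 and WT MPTP 1 brought it to 0.32 on the log2 scale, so its value rested on those profiles. The median of the 10 was −0.03 and 0.11 in those fits.

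**Figure D3:**
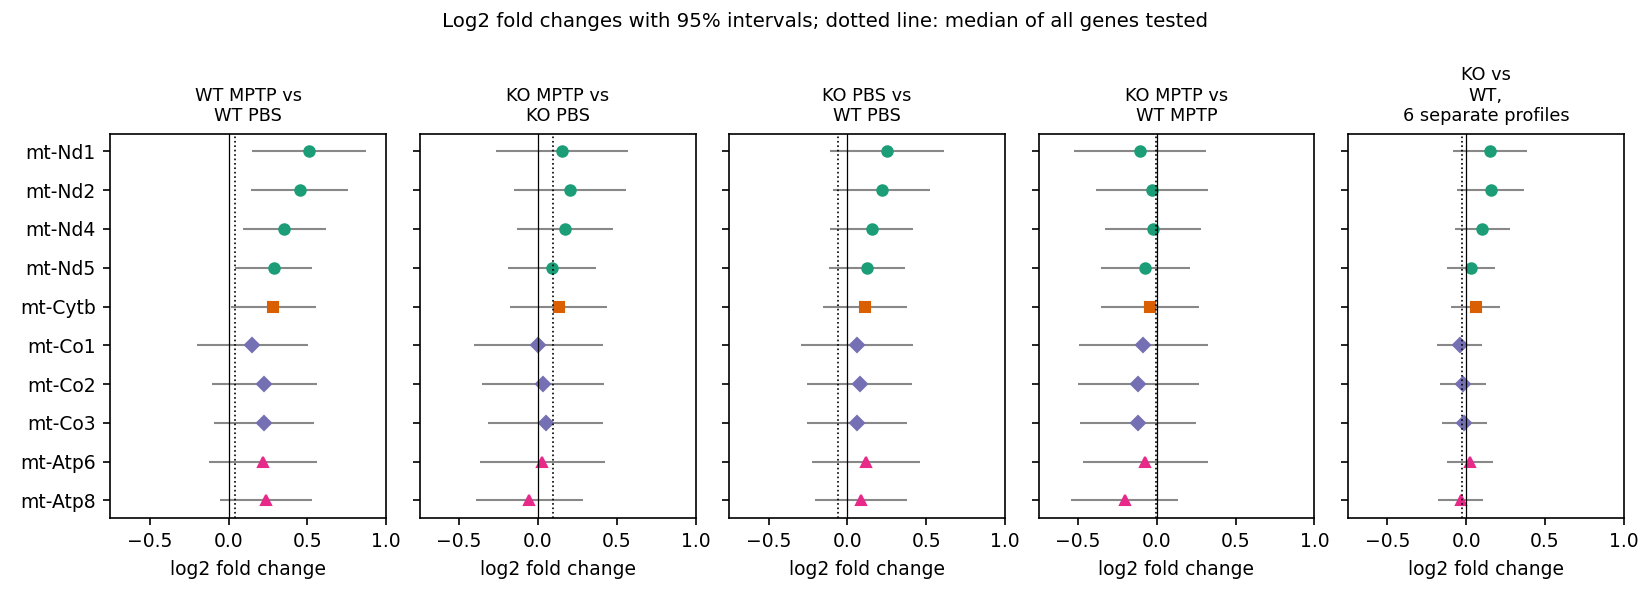
Log2 fold change of each gene (horizontal axis, log2(FPKM + 1) scale) in 5 comparisons, with 95% intervals from limma that are not adjusted for the number of genes; the dotted line is the median of all 10634 genes. In WT MPTP against WT PBS all 10 points lie above 0, from 0.15 for mt-Co1 to 0.51 for mt-Nd1, and in KO against WT over 6 profiles every interval includes 0.

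The nuclear genes for subunits of the same complexes stood at lower levels than their mitochondrial partners. Over the tested genes of each list, the median of the mean level was 63.5 FPKM for 36 nuclear subunits of complex I, 113 FPKM for 9 of complex III, 194 FPKM for 11 of complex IV and 195 FPKM for 15 of the ATP synthase. The lowest mitochondrial gene of the 10, mt-Nd5, averaged 1273 FPKM.

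Between KO PBS and WT PBS, 0 of the 71 nuclear subunits lay above 0, where 22.1% of all genes and 10 of the 10 mitochondrial genes did. With the 3 other scalings 13 to 23 of the 71 and 8 to 10 of the 10 lay above 0. The share of all genes above 0 is not given here for those scalings, but their median was between 0.002 and 0.01. The median of the 71 was −0.11, and between −0.04 and −0.03 with those scalings. Of these 71, 3 were called lower in KO PBS, all subunits of the ATP synthase, where 0.226% of all genes were called. With TMM and with scaling to genes other than the mitochondrial ones 3 were called as well. With quantile normalization 2 were, and the call of Atp5e was lost. KO PBS is 1 profile here, so these calls rest on the spread of the WT PBS pair, with no replicate of KO PBS. With the profile under both labels counted as KO PBS, 0 of the 71 lay above 0 without WT PBS 1 and 19 without WT PBS 2. Atp5h, a subunit of the ATP synthase stalk, was at 129 FPKM in KO PBS 1, against 225 and 223 FPKM in WT PBS. Its log2 fold change was −0.79, with an adjusted p of 0.00165 by limma. It was also at 141 FPKM in KO MPTP 2, 144 in WT MPTP 1 and 135 in KO PBS 2. For this gene the WT PBS pair thus stood apart from every other profile. Atp5e was at 155 FPKM, against 250 and 293 FPKM (−0.80), and Atp5a1, the alpha subunit of the catalytic head, at 147 FPKM, against 254 and 266 FPKM (−0.82). Atp5a1 is one of the 42 genes with rows off the column relations. The mitochondrial partners in that complex, mt-Atp6 and mt-Atp8, were at 0.12 and 0.09 in this comparison, and neither passed the test. No test of mitochondrial against nuclear subunits was run.

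In WT MPTP against WT PBS, 3 of the 71 nuclear subunits were called lower and 0 higher, where 0.254% of all genes were called in either direction. The 3 were Atp5h (−0.64), Atp5a1 (−0.59) and the complex I subunit gene Ndufs8 (−0.61). WT MPTP is 1 profile here, so these calls too rest on the spread of the WT PBS pair. The median of the 71 was 0.05, with 55 above 0, where 73% of all genes were. With the 3 other scalings 37 or 38 of the 71 were above 0. Without WT PBS 1 the median of the 71 was −0.01 with 30 above 0, and without WT PBS 2 it was 0.11 with 60 above 0. The comparisons of KO MPTP with KO PBS and with WT MPTP set 1 profile against 1, with no replicate on either side, so the calls there rest on the spread of the WT PBS pair and do not show a change between the groups. In KO MPTP against KO PBS the calls were 4, all lower, where 0.292% of all genes were called. They were Atp5a1 (−1.17), Cox6c (−0.87), Ndufs8 (−0.66) and the complex IV subunit gene Cox7b (−0.60). The median over the 71 was 0.10, and came to between −0.01 and 0.02 with the 3 other scalings. In KO MPTP against WT MPTP the calls were 3, all lower, where 0.103% of all genes were called. They were Atp5a1 (−1.40), Cox6c (−0.98) and Cox7b (−0.90). The median over the 71 was −0.07, with 4 above 0, where 45.7% of all genes were. With the 3 other scalings that median was between −0.06 and −0.02, with 6 to 30 above 0. All of these except Atp5h have rows off the column relations. None of the calls on nuclear subunits stood without the filter on low values, where 0 genes of the whole table were called, and only that of Atp5h in KO PBS stood with the highest row of each symbol in place of the sum. Both calls of Cox6c were lost when the profile under both labels was counted as KO PBS, with no profile left out. In that same fit with WT PBS 1 also left out, Atp5h, Atp5a1 and Ndufs8 were not called in WT MPTP, and with WT PBS 2 left out Atp5a1 and Ndufs8 were not. The call of Ndufs8 in KO MPTP against KO PBS was lost in it with any 1 of KO PBS 1, WT PBS 1 or WT PBS 2 left out, and that of Cox7b without KO PBS 1.

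**Figure D4:**
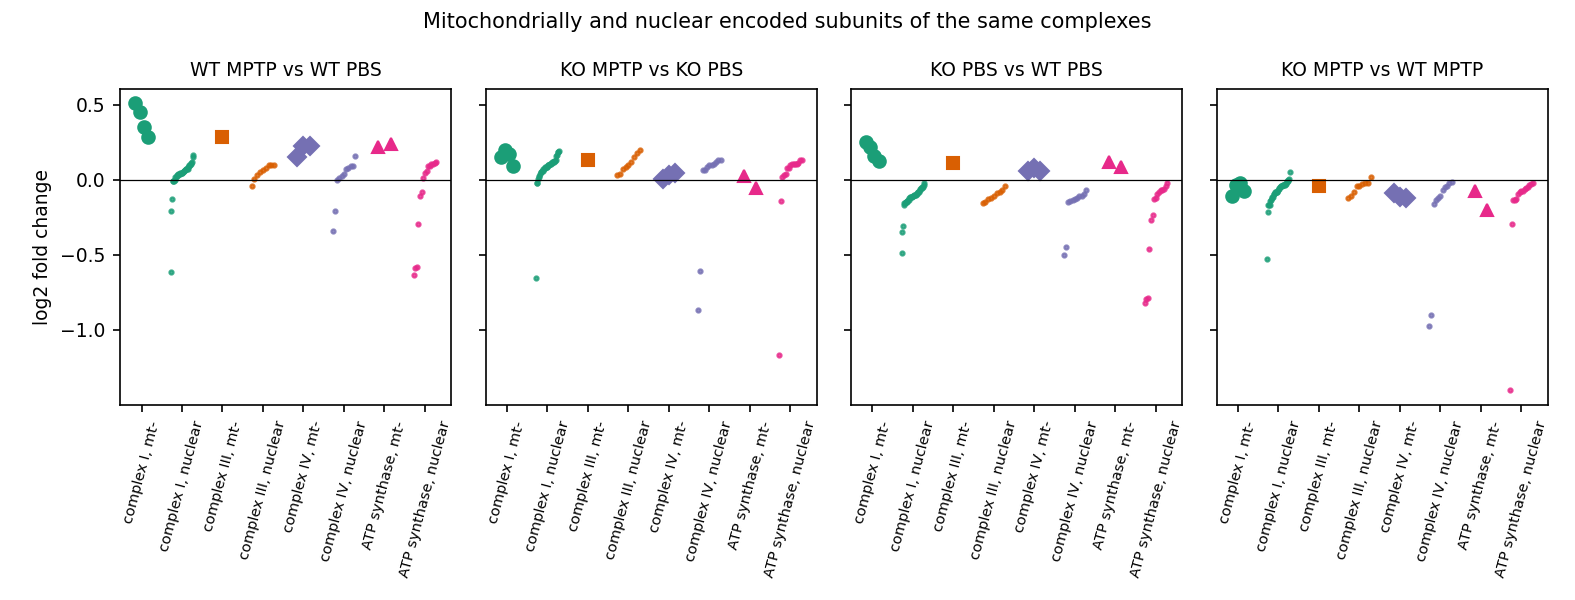
Log2 fold change (vertical axis) of the mitochondrially encoded subunits (large symbols) and of the nuclear encoded subunits of the same complexes (small points, sorted by value) in 4 comparisons. In KO PBS against WT PBS all 10 mitochondrial genes lie above 0 and all 71 nuclear subunits below 0. With other scalings 8 to 10 of the 10 and 13 to 23 of the 71 lay above 0. No mitochondrial gene passed the test in any panel.

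Genes that act on the mitochondrial genome itself were mostly without calls. Of 9 tested genes of mitochondrial transcription, Tfam, which packages mitochondrial DNA and starts its transcription, was the one called. It was at 10.2 FPKM in WT MPTP 1, against 16.67 and 17.65 FPKM in WT PBS, lower by 0.70 on the log2 scale (limma, adjusted p = 0.0101). In KO PBS 1 it was at 11.02 FPKM, against the same WT PBS values, lower by 0.59 (limma, adjusted p = 0.0286). Each of these calls sets 1 profile against the WT PBS pair. Tfam is a gene with rows off the column relations. Both calls were lost with quantile normalization, without the filter on low values and with the highest row of each symbol. Both were also lost where the profile under both labels was counted as KO PBS and WT PBS 1 or WT PBS 2 was left out. The call in KO PBS was lost as well without KO PBS 1, with scaling to genes other than the mitochondrial ones, and with that profile counted as KO MPTP with its KO PBS 2 values. In both of these comparisons the 10 mitochondrial genes lay above 0 (8 of 10 with quantile normalization) and none was called. Of 10 tested genes of mitochondrial DNA replication and 19 of mitochondrial RNA processing and stability, 0 were called in any of the comparisons with limma. In KO PBS against WT PBS their medians were −0.09 and −0.08, and in WT MPTP against WT PBS 0.0025 and 0.03.

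The 10 genes did not vary as 1 block over the profiles, and the part of WT PBS 1 in this was not tested. In WT PBS 1, relative to each gene's mean on the log2 scale, mt-Nd1 was at −0.43, mt-Nd2 at −0.38 and mt-Co1 at 0.01. Pearson's r of single members with the mean of the 10 ran from 0.64 for mt-Co1 to 0.98 for mt-Cytb. Over the 6 separate profiles, Pearson's r between pairs of members ran from 0.28 for mt-Nd1 with mt-Co1 to 0.99 for mt-Nd4 with mt-Cytb, a description over few points that share library and scaling. The coefficient of variation was 15.6% for mt-Nd1, 14.3% for mt-Nd2 and 10.8% for mt-Nd4, and between 6.04% and 8.56% for the other 7. mt-Nd3, mt-Nd4l and mt-Nd6 averaged 785 ± 115, 1065 ± 115 and 1733 ± 165 FPKM (SD, n = 6 profiles) and were also highest in WT MPTP 1. The genes outside the mitochondrial genome whose pattern over the 6 profiles was most like the mean of the 10 were C3ar1, a complement receptor gene (r = 0.99), the signalling adaptor gene Bcl10 (0.98), Ino80e, which encodes a subunit of a chromatin remodeller (0.98), the transferrin receptor gene Tfrc (0.97) and the complement receptor gene C5ar1 (0.97). C3ar1 was at 45.2 FPKM in KO MPTP 2, against 46.8 in WT MPTP 1, and at 43.2 and 42.5 FPKM in the KO PBS profiles, against 41.2 and 41.5 in the WT PBS profiles. The least like were Folr1 (−0.94), Rxra (−0.93), Pars2 (−0.93), Zfp113 (−0.93) and Sclt1 (−0.92). Rxra, a nuclear receptor gene, was at 23.6 FPKM in KO MPTP 2, against 23.1 in WT MPTP 1, and at 31.9 and 30.6 FPKM in the KO PBS profiles, against 34.4 and 33.2 in the WT PBS profiles. Of 10621 genes compared, 0.744% had an r of at least 0.9 with the members' mean.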

How the data were processed

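The authors deposited 1 table of 67355 rows and 12 columns, all of which were mapped to samples. The submitters' processing notes list CASAVA 1.5, Bowtie 0.12.7, TopHat, Cufflinks and mm9 without saying what each was used for. The deposited values were read as FPKM, the unit Cufflinks writes, since the header names none. The annotation, filters and strand setting were not given in the sources used here. No counting interval was possible, as depth is unknown. Rows were summed per symbol after trailing numbers were removed, and 1 row with text was left out. Column relations were checked within 0.0101 FPKM (multiples) and 0.00995 FPKM (means).

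limma 3.58.1 (R 4.3.3) was fitted with a mean-variance trend to log2(FPKM + 1) of the genes with 1 FPKM or more in 3 or more of the 6 separate profiles and called at a Benjamini-Hochberg adjusted p under 0.05. Fits by group used 5 profiles, with 9.01 prior degrees of freedom and 1 residual degree of freedom that came from WT PBS, so each single profile is assumed to vary like WT PBS. KO against WT used 6 profiles. No replicate block was used. Exact permutation tests used scipy 1.17.1. The fit was tested on simulated data. Alternatives were other pseudocounts, filters, scalings (trimmed mean of M values, TMM; quantile; genes other than mt-), libraries, rows per symbol, a replicate block and left-out profiles. Named genes were the members, the 5 genes most and 5 least like their mean, and up to 4 called genes per list and comparison. Members, lists and rule were chosen with earlier results of these data known.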

Additional observations from a re-analysis of the deposited data

How the results depend on the processing

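The number of the 10 members called was 0 in each comparison, and alternatives raised it as follows. With the 12 columns entered as libraries, which counts computed columns as replicates, it was 10 for WT MPTP against WT PBS, 4 for KO PBS against WT PBS, 7 for KO MPTP against WT MPTP and 6 for the interaction. In the whole table, the 12 columns gave 2149, 1321, 1539 and 127 called genes for these comparisons, in the same order. With quantile normalization the number of members called was 1 for WT MPTP against WT PBS. With profiles left out in turn it ran from 0 to 3 for WT MPTP against WT PBS and from 0 to 2 for KO PBS against WT PBS. Both upper ends came without WT PBS 2, in the fit that counted the profile under both labels as KO PBS. The members called there were mt-Nd1 and mt-Nd2 in both comparisons, and mt-Nd4 in WT MPTP against WT PBS. That fit takes its spread from KO PBS 1 and the profile under both labels, so its calls have no replicate of WT PBS. With the replicate block the number of members called stayed at 0. The labels do not say that the numbers mark shared animals, and the deviations of KO PBS 1 and WT PBS 1 from their group means correlated at 0.227 over genes and at 0.896 over the 10 members. In the whole table the genes called ranged, over the alternatives other than 12 columns, from 0 to 35 (27 as reported) for WT MPTP against WT PBS, 0 to 51 (31) for KO MPTP against KO PBS, 0 to 39 (24) for KO PBS against WT PBS, 0 to 19 (11) for KO MPTP against WT MPTP, 0 to 18 (8) for the interaction and 0 to 71 (4) for KO against WT, the last with the replicate block. Each lower end came without the filter, and 0 genes were also called with the highest row per symbol for WT MPTP against WT PBS, KO MPTP against WT MPTP and the interaction, and with TMM or quantile normalization for KO against WT, and with the replicate block for the interaction. The 15 calls on nuclear subunits and Tfam kept their sign in all 16 alternatives each, and each was called in 8 to 15 of them.

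Of 960 recomputed member values on the log2 scale, 62 turned sign, none beyond 0.103 in size. The cause was not tested. For KO MPTP against KO PBS, TMM gave −0.0171 for mt-Nd5, −0.103 for mt-Co1, −0.0733 for mt-Co2, −0.0575 for mt-Co3 and −0.0779 for mt-Atp6. Scaling to genes other than mt- gave −0.0727, −0.0426, −0.0268 and −0.0472 for mt-Co1, mt-Co2, mt-Co3 and mt-Atp6. The profile under both labels as KO MPTP gave −0.0789, −0.0326 and −0.0289 for mt-Co1, mt-Co2 and mt-Atp6 with the values of KO PBS 2, and −0.0647, −0.0183 and −0.0146 with those of KO MPTP 1. The replicate block gave 0.0198 for mt-Atp8, and leaving out profiles −0.0155 to 0.0237. For KO MPTP against WT MPTP, the replicate block gave 0.0331 for mt-Co1 and 0.0245 for mt-Atp6, quantile normalization 0.0532 for mt-Nd1 and 0.05 for mt-Cytb, and scaling to genes other than mt- 0.021, 0.0282 and 0.0113 for mt-Nd2, mt-Nd4 and mt-Cytb. For KO PBS against WT PBS, mt-Co1 was −0.018 with 12 columns and −0.0186 with the profile under both labels as KO PBS, with or without the replicate block, and mt-Co2 was −0.0214 with quantile normalization, as it was for WT MPTP against WT PBS. Leaving out profiles gave −0.0988 to 0.0212 for mt-Co1 (−0.0584 without WT PBS 2) and −0.0196 to 0.0463 for mt-Co2. For the interaction, the replicate block gave 0.0516 for mt-Co1, quantile normalization 0.0119 for mt-Cytb and 0.0214 for mt-Co2, and leaving out profiles −0.108 to 0.0118 for mt-Co1.

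For KO against WT over 6 profiles, 12 columns gave −0.0385 for mt-Nd5 and −0.0282 for mt-Atp6. TMM gave 0.017, 0.0241 and 0.00074 for mt-Co2, mt-Co3 and mt-Atp8, and quantile normalization 0.024 and 0.00975 for mt-Co3 and mt-Atp8. Scaling to genes other than mt- gave 0.0267, 0.0489, 0.0559 and 0.0325 for mt-Co1, mt-Co2, mt-Co3 and mt-Atp8, and the replicate block 0.00936 for mt-Co2 and 0.00321 for mt-Atp8. Leaving out profiles gave −0.0388 to 0.0969 for mt-Atp6, −0.0908 to 0.0436 for mt-Atp8, −0.0864 to 0.0125 for mt-Co1, −0.0656 to 0.0564 for mt-Co2, −0.0635 to 0.0633 for mt-Co3, −0.0137 to 0.155 for mt-Cytb, −0.0301 to 0.319 for mt-Nd1 and −0.0234 to 0.126 for mt-Nd5. Leave-out fits by group counted the profile under both labels as KO PBS, and a lone profile was assumed to vary like the other groups. The single profiles of KO MPTP and WT MPTP could not be left out of fits by group. Unknown depth limits any statement on precision.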
